A study of Mus musculus with 106 samples.

Results

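The clustered Hox genes are the homeobox genes of the HoxA, HoxB, HoxC and HoxD clusters. They were taken by name, as every protein-coding gene whose symbol is Hox followed by a, b, c or d and a number, which gave 39 of the 21897 protein-coding genes in the table. The HoxA cluster held 11 of them within 105.3 kb of chromosome 6, HoxB 10 within 173.9 kb of chromosome 11, HoxC 9 within 115.8 kb of chromosome 15 and HoxD 9 within 96.8 kb of chromosome 2. The study sequenced messenger RNA from brains of mice with a knock-in model of Huntington's disease (HD) and of their control littermates. In these mice a Cre driver line adds an HA tag to the ribosomal protein Rpl22 of 1 kind of neuron. Antibody precipitation (RiboTag IP, called IP here) then takes ribosome-bound mRNA of those neurons, and total RNA comes from an aliquot of the same homogenate. There were 67 IP and 39 total RNA libraries, from 24 control and 21 HD mice in 24 groups. Separate animals were the replicates, and an IP and a total RNA library, or a cerebral and a cerebellar library, could come from the same mouse.

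HD mice were Hdh Q7/Q200, with 1 allele of a very long CAG repeat, and controls were Hdh Q7/Q7. The paper gives age, background and breeding for the Gad2, PV and vGluT2 lines. Mice of these lines were about 9 months old, were on a 129S4 background, and were heterozygous for the RiboTag allele and for a Cre line. The Cre lines were Gad2-IRES-Cre for GABAergic neurons, PV-IRES-Cre for parvalbumin neurons and vGluT2-IRES-Cre for neurons with the vesicular glutamate transporter vGluT2 (gene Slc17a6). A further set is labeled SST, for somatostatin neurons. The paper does not describe that line, and its driver was not given in the sources used here. All HD mice of the SST line have names starting with BR. Control SST IP replicates 3, 4 and 6 and control SST total RNA replicates 3 and 4 came from mice with names starting with Z. What the names stand for was not given, and in that line they cannot be fully told apart from genotype. The cerebral IP groups held 6 control and 6 HD libraries for Gad2, 6 and 5 for PV, 5 and 4 for SST and 6 and 6 for vGluT2. The cerebellar IP groups held 6 and 6 for Gad2 and 5 and 6 for vGluT2. Total RNA groups held 3 libraries each, except 4 for control SST, control cerebellar vGluT2 and HD cerebellar vGluT2. Cre acts in any cell that used the promoter at some time in its history, so the tagged cells may be wider than the adult cell type. Cerebral samples were all of the brain without cerebellum and olfactory bulb, so they held telencephalon, diencephalon, midbrain and brainstem together. Total estimated counts ran from 21905221 to 107753586 per library with a median of 35866725, and a floor of 3 counts equaled 0.0836 counts-per-million (CPM) units at that median; such floors and the counting intervals below cover counting error only.

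Hox genes encode homeodomain transcription factors that give cells of the embryo their place along the head-to-tail axis. Within a cluster, genes at the 3′ end (low paralog numbers) are switched on by retinoic acid first and reach furthest forward, into the hindbrain, while genes at the 5′ end act in the caudal spinal cord, limbs and genitalia. Forebrain, midbrain and the cerebellar primordium lie in front of most Hox domains. Outside its domain a cluster is kept silent by Polycomb complexes, of which PRC2 methylates histone H3 on lysine 27 and PRC1 binds that mark and ubiquitinates histone H2A, and adult neurons keep much of the pattern they had in the embryo.

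The IP labels were checked against marker genes. Gad1, which makes GABA, had a median of 1349 CPM in cerebral Gad2 IPs, 1999 in PV IPs, 805 in SST IPs and 40.9 in cerebral vGluT2 IPs, beside 309 in cerebral total RNA. Sst was at 1630 CPM in SST IPs against 207 in cerebral total RNA, and Pvalb was at 670 CPM in PV IPs against 128. Slc17a6, the gene of vGluT2 itself, was at 107 CPM in cerebral vGluT2 IPs against 46.4 in total RNA, but it was higher still in PV IPs (130) and SST IPs (136). It was at 21.2 CPM in cerebellar vGluT2 IPs against 8.44 in cerebellar total RNA, where its difference was not called. Cerebellar vGluT2 IPs were instead marked by granule cell genes, of which 5 of 5 rose against total RNA (Cbln3 the highest at 2782 CPM). Of all tested genes 56.7% were called there, in either direction. Expression in bulk samples cannot tell fewer cells of a type from less RNA per cell.

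Hox mRNA was readily found in the cerebrum and almost not in the cerebellum, and what was found came from the anterior part of the clusters. A gene counted as detected in a set of libraries when at least 50% of them held 3 or more counts. By this rule 17 members were detected in cerebral Gad2 IPs (12 libraries, both genotypes), 19 in PV IPs (11), 18 in SST IPs (9), 16 in cerebral vGluT2 IPs (12) and 18 in cerebral total RNA (25). All of them belonged to paralog groups 1 to 8, which hold 23 members, and 0 of the 16 members of groups 9 to 13 were detected in any of the 8 sets. Among cerebellar IPs, 0 members were detected for Gad2 (12 libraries) and 0 for vGluT2 (11), and in cerebellar total RNA (14) 1 was. The cerebellar numbers depend on the floor: with 1 count they were 1, 8 and 12 members, and with 10 counts, or with every library thinned to 20000000 counts, 0, 0 and 0.

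In all, 19 members were detected in at least 1 set, among them Hoxa2 to Hoxa5, Hoxb2 to Hoxb8 and Hoxc4 to Hoxc6. Sets differed at the margin only: Hoxa7, a gene of the trunk, reached the floor in PV IPs alone. Hoxd1, which acts in pain-sensing neurons, missed it in both the Gad2 and the vGluT2 IPs of the cerebrum. Hoxb1, which gives facial motor neurons their segment identity, was not detected in any set. Groups 9 to 13 supplied 9 of the Hox counts in cerebral Gad2 IPs beside 18035 from groups 1 to 8 (0.05%). They supplied 50 beside 20376 in PV IPs (0.24%) and 101 beside 27611 in cerebral total RNA (0.36%). The share was 0.34% in SST and in cerebral vGluT2 IPs. In the cerebellum, with few Hox counts, it was 0.78% in Gad2 IPs and 1.01% in total RNA. It was highest in cerebellar vGluT2 IPs, at 3.27% (31 beside 916 counts). In PV and SST IPs most posterior counts were Hoxd13, the last HoxD gene and a gene of digits and genitalia, which had 32 counts in PV IPs (14 of them in 1 library), 25 in SST IPs (17 in 1 library) and 0 in cerebral Gad2 IPs. Hoxa11, Hoxa13, Hoxc11, Hoxc12 and Hoxd12 had 0 counts in every library, which allows a level of up to 0.000738 CPM.

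Levels of different genes were compared per kb of merged exon, averaged over the 69 cerebral libraries. Hoxb5 (ENSMUSG00000038700.4, chromosome 11, 96303336 to 96306121, plus strand), a gene of caudal hindbrain and of the neural crest that forms the gut nervous system, was highest at 3.23 CPM per kb (SD 2.16). Hoxa5 (ENSMUSG00000038253.6, chromosome 6, 52201754 to 52204587, minus strand), needed for phrenic motor neurons, followed at 2.18 (SD 1.73), and Hoxc4, a gene of medulla and cervical cord, at 1.31 (SD 0.828). Next came Hoxb8 (1.07, SD 1.18), which acts in spinal sensory circuits and whose loss causes excessive grooming, Hoxa4 (0.967, SD 0.591), Hoxb6 (0.939, SD 0.851), Hoxb3 (0.730, SD 0.429) and Hoxb4 (0.653, SD 0.445). The SDs are large beside most steps of this order, which is not the order along the chromosome. Hoxb5 and Hoxa5 stood above every member of groups 1 to 4. The order pools all cerebral sets and does not hold in each. Hoxb8 had a median of 1.91 CPM per kb in cerebral Gad2 IPs but 0.401 in PV IPs. There it lay below Hoxa4 (1.30), Hoxb4 (1.20) and Hoxb3 (0.850). The remaining detected members ran from Hoxc5 at 0.419 down to Hoxa7 at 0.0270 CPM per kb. Hox levels were low for this brain: the median of 15652 other detected protein-coding genes was 3.81 CPM per kb, above every member, and 46.5% of them lay below Hoxb5. Hoxd3 and Hoxd4 are uncertain as separate genes, since 62.3% of the exon length of Hoxd3 and 52.3% of that of Hoxd4 lie in shared same-strand exons and 18.9% of their values are not whole numbers. For Hoxb3, 52.9% of the exon length overlaps genes on the other strand.

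Within a cell type the level changed greatly from mouse to mouse, and libraries low in Hoxb5 were mostly low in Hoxa5 too. In cerebral Gad2 IPs Hoxb5 ran from 0 through a median of 11.8 to 18.7 CPM in 6 controls and from 0 through 16.8 to 19.6 CPM in 6 HD mice. Hoxa5 ran from 0 through 5.65 to 9.28 CPM in the controls and from 0 through 7.37 to 9.69 CPM in the HD mice. The same libraries were low for both genes, namely control replicates 3 and 5 and HD replicate 4. In cerebral vGluT2 IPs Hoxb5 ran from 0.0727 through 2.97 to 11.2 CPM in 6 controls and from 0.528 through 6.83 to 11.8 CPM in 6 HD mice, with the 3 lowest controls (replicates 1, 2 and 3) under 1 CPM. Control PV IPs had no low library: Hoxb5 stayed between 9.99 and 17.8 CPM and Hoxa5 between 5.80 and 9.81 CPM in all 6. Hoxb8 was the most uneven of the leading genes, at a median of 5.04 CPM in control cerebral Gad2 IPs (0 to 11.3) but 1.88 in control PV IPs (0.273 to 3.04) and 0.333 in control cerebral vGluT2 IPs (0 to 5.95). Hoxb3 was the steadiest, at 3 or more counts in 68 of the 69 cerebral libraries, where Hoxb8 reached that in 53.

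Summed over the 39 members, Hox mRNA had a median of 55.1 CPM in cerebral Gad2 IPs (0.460 to 72.5), 48.5 in PV IPs (0.606 to 67.7), and 50.8 in SST IPs (7.71 to 78.3). It was 17.1 in cerebral vGluT2 IPs (0.363 to 44.0) and 30.8 in cerebral total RNA (1.25 to 61.6). HoxB supplied the largest part in each cerebral set, with a median of 33.0 CPM in cerebral Gad2 IPs beside 11.7 for HoxA, 6.39 for HoxC and 2.45 for HoxD, and of 8.23 CPM in cerebral vGluT2 IPs beside 5.41, 3.60 and 0.951. Groups 5 to 8 (median 33.0 CPM) stood above groups 1 to 4 (21.2) in cerebral Gad2 IPs, while in PV IPs the values were 23.9 and 24.6 CPM. The lowest sums were in control cerebral vGluT2 replicate 3 (0.363 CPM), HD cerebral Gad2 replicate 4 (0.460), HD PV replicate 3 (0.606) and control cerebral Gad2 replicate 3 (1.06). Both genotypes thus had libraries within the cerebellar range, and the control and HD ranges overlapped in each cerebral IP set. HD cerebral vGluT2 replicate re1, a library of few detected genes, held its 12.9 CPM in 5 members at the floor. These were Hoxa5 at 369 counts, Hoxb3 at 154, Hoxb8 at 145, Hoxc6 at 80 and Hoxb5 at 32. Hoxc4, Hoxb6 and Hoxa3 were at 0. The libraries labeled re, 1 each of cerebral vGluT2, cerebellar Gad2 and PV IPs, are all HD. The paper's supplement reports that some libraries failed at first and were sequenced again with longer reads. Whether the label marks those libraries was not checked.

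**Figure D1:**
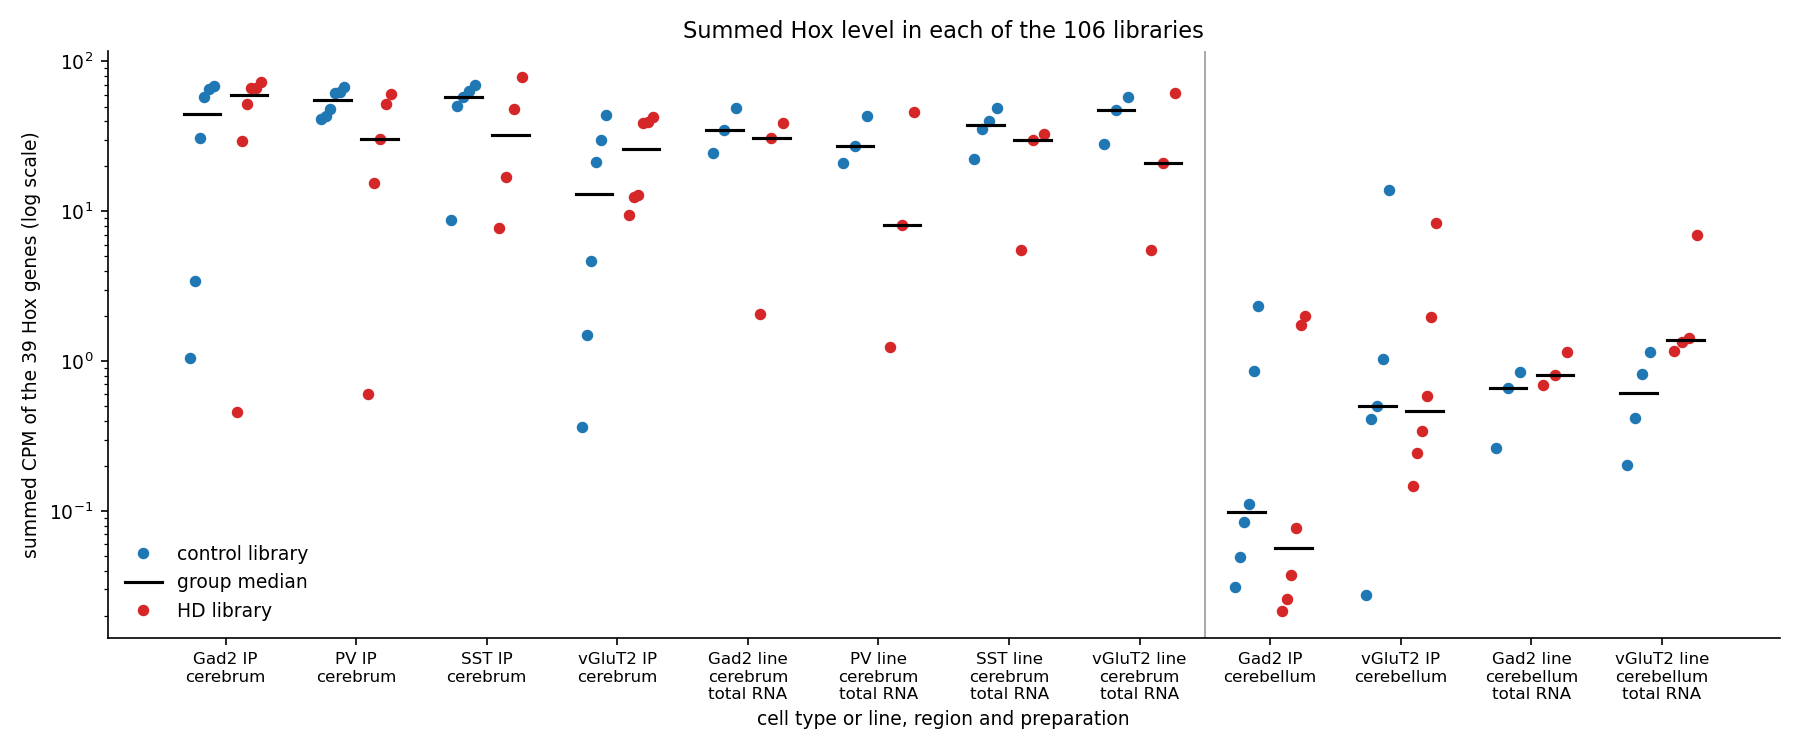
Summed CPM of the 39 Hox genes (vertical axis, log scale) in each library, as points, by cell type or line, region and preparation (horizontal axis), with black bars at group medians, blue for control and red for HD; the gray line divides cerebrum from cerebellum. Cerebral IP sets have medians of 17.1 to 55.1 CPM with single libraries down to 0.363, and cerebellar sets have medians under 1 CPM.

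The low libraries were set beside a list of 12 hindbrain neuron markers, of which 11 or 12 were detected in each cerebral set. Its summed level had a median of 90.5 CPM in cerebral Gad2 IPs (17.0 to 118; Slc6a5, the glycine transporter of hindbrain and cord neurons, the most abundant at 76.7; Tlx3 not detected). It was 113 in PV IPs (29.5 to 174; Slc6a5 89.6; Phox2a not detected) and 66.0 in SST IPs (36.9 to 99.3; Slc6a5 39.8; Phox2a not detected). In cerebral vGluT2 IPs, where all 12 were detected, it was 10.6 CPM (1.86 to 17.2; Dbh, which makes noradrenaline, the most abundant at 1.77), and in cerebral total RNA 49.2 CPM (15.2 to 94.9; Slc6a5 20.8). The library with the lowest Hox sum was also the lowest for these markers in cerebral Gad2 IPs (HD replicate 4, 17.0 CPM), in PV IPs (HD replicate 3, 29.5) and in cerebral total RNA (HD PV line replicate 2, 1.25 CPM of Hox and 15.2 of the markers). In SST IPs it was not, as HD replicate 2 had 7.71 CPM of Hox and 53.2 of the markers. Nor was it in cerebral vGluT2 IPs, where control replicate 3 had 0.363 CPM of Hox and 5.74 of the markers, and HD replicate re1 12.9 and 1.86. Control cerebral Gad2 replicates 3 and 5, at 1.06 and 3.44 CPM of Hox, had 33.6 and 34.1 CPM of the markers. In the Gad2 libraries named, the markers stood nearer to their median than the Hox sum to its own. HD PV replicate 3 also had the highest sum of granule cell markers among PV IPs, 508 CPM against a median of 57.5. How much brainstem each sample held was not recorded in the sources used here, and its part in these differences was not tested.

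IP and total RNA of the same mouse and region could be paired in 24 cerebral cases. The IP held the higher Hox sum in 16 of them: 4 of 6 for Gad2, 5 of 6 for PV, 6 of 6 for SST and 1 of 6 for vGluT2. Mice with a low IP mostly had low total RNA too: the HD Gad2 pair with 0.460 CPM in the IP had 2.07 in total RNA, the HD PV pair with 0.606 had 1.25, and the HD SST pair with 7.71 had 5.48. At the high end, HD SST replicate 3 had 78.3 CPM in the IP and 29.8 in total RNA, while HD cerebral vGluT2 replicate 3 had 42.9 and 61.6. In the cerebellum 6 of 13 pairs had the higher sum in the IP.

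**Figure D2:**
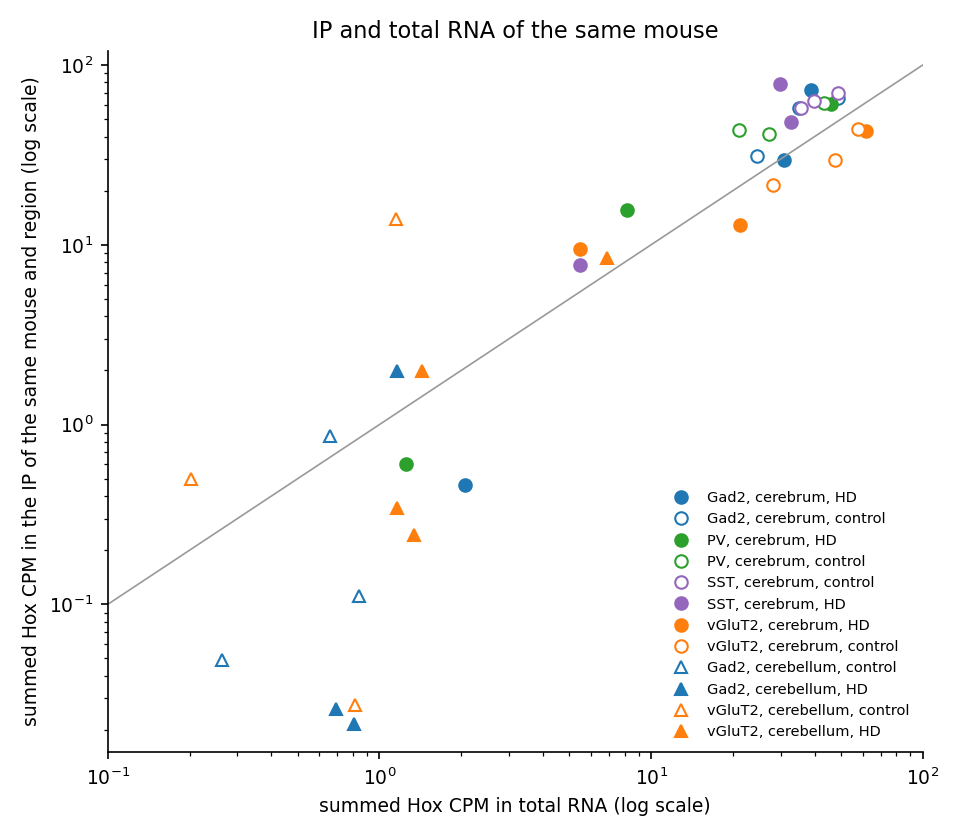
Summed Hox CPM in the IP (vertical axis, log scale) against that in total RNA (horizontal axis, log scale) of the same mouse and region; circles are cerebral and triangles cerebellar pairs, colors are lines, filled symbols are HD and open ones control, and the line marks equal levels. IPs lie above the line in 16 of 24 cerebral pairs, in 6 of 6 for SST and 1 of 6 for vGluT2.

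Between the regions, Hox genes fell steeply in the cerebellum. In control Gad2 IPs Hoxb3, a gene of caudal hindbrain segments, averaged 3.09 CPM in the cerebrum (0.344 to 5.97) and 0.0467 in the cerebellum, where 5 of 6 libraries were at 0 and replicate 2 held all 10 counts. Hoxa5 was at 0 in all 6 control cerebellar Gad2 libraries, at least 331-fold lower than the cerebral mean, with the floor set at 3 counts over the 6 libraries. Hoxb8 was at least 336-fold lower, Hoxb6 at least 200-fold and Hoxb7 at least 65.5-fold. Hoxb5 had 2 counts in the cerebellum against 2019 in the cerebrum, a ratio of 1012 (95% counting interval 279.8 to 8364). In the quasi-likelihood test of edgeR, with p adjusted by Benjamini-Hochberg, 12 of the 14 members tested were called lower and 0 higher, where 51.1% of all tested genes were called. For Hoxb3 the log2 fold change was −5.84 (SE 1.04, adjusted p 0.000195, n = 6 and 6). Members entered the test through their cerebral counts, so those tested had to be lower in the cerebellum, and the other 25 were not tested. Hoxa2, which patterns hindbrain and facial structures, and Hoxa3, which acts in pharyngeal organs and caudal hindbrain, were not called.

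Hoxa3 had the smallest regional difference of the members tested in Gad2 IPs. It averaged 0.288 CPM in the control cerebellum (56 counts, against 1.13 CPM in the cerebrum), with 0.812 CPM in replicate 2, 0.863 in replicate 5 and 0 to 0.0311 in the other 4 libraries. The log2 fold change was −1.80 (SE 1.13, edgeR adjusted p 0.198, n = 6 and 6). It was called without the libraries of few detected genes (−2.88, adjusted p 0.0333), a choice made after seeing the data, and with both genotypes (−2.11, adjusted p 0.0220). Over the fits without 1 library the adjusted p was 0.0712 to 0.319. In the HD cerebellum Hoxa3 was at 0.841 CPM in replicate 1 and at 57 counts in replicate re1, and at 0 in the other 4. Control replicate 5 held Hoxa3 alone, whose 0.863 CPM was its whole Hox sum, while control replicate 2 had 2.30 of its 2.32 CPM in groups 1 to 4, Hoxa2 at 0.532 among them. The mouse with control cerebellar replicate 5 also had a low cerebral Gad2 IP (3.44 CPM), whereas that with replicate 2 was among the highest there (68.7).

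In control vGluT2 IPs the same comparison gave fewer calls. Hoxb5 averaged 4.37 CPM in the cerebrum and 0.460 in the cerebellum, where the 5 libraries held 0.101, 2.20, 0, 0 and 0 CPM, and Hoxb8 averaged 1.54 and 0.0225 (4 counts). Replicate 2 thus carried most of the cerebellar signal: its Hox sum was 13.9 CPM with 19 members at the floor, in HoxA (3.92), HoxB (6.23), HoxC (2.39) and HoxD (1.34) alike. It exceeded the 4.67 CPM of the cerebral IP of the same mouse. Here too members could enter the test through their cerebral counts, and such a member, as Hoxb8, could only be called lower. With edgeR, 2 of 11 members tested were called, both lower, where 63.2% of all tested genes were called: Hoxb8 at −5.98 (SE 1.76, adjusted p 0.00879) and Hoxb5 at −3.33 (SE 1.35, adjusted p 0.0451, n = 5 and 6). Leaving out cerebellar replicate 2 raised the count to 11 and moved Hoxb5 to −7.23. Leaving out cerebral replicate 1 or 3 gave 5 or 6 calls, and leaving out cerebellar replicate 1 or cerebral replicate 4, 5 or 6 gave 1. Hoxb5 was not called without cerebellar replicate 1 (−3.07), 3 (−3.02), 4 (−3.01) or 5 (−3.02) or cerebral replicate 4 (−2.99), 5 (−3.30) or 6 (−2.78), with adjusted p from 0.00206 to 0.0995 over all refits. With the mouse as a block neither was called (Hoxb8 −3.65, adjusted p 0.120; Hoxb5 −3.74, adjusted p 0.111), DESeq2 and scaling by library size called 1, and both genotypes together gave 12.

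Control total RNA of the Gad2 and vGluT2 lines also held far less Hox mRNA in the cerebellum. Hoxb5 ran from 6.75 through 10.3 to 15.5 CPM in 6 cerebral libraries and from 0 through 0.0279 to 0.374 in 7 cerebellar ones, and Hoxa5 ran from 2.08 through 2.99 to 4.63 and from 0 through 0.0216 to 0.0680. No cerebellar library came near a cerebral one for either gene. With edgeR, 14 of 14 members tested were called lower, where 58.2% of all tested genes were called, and the other 25 members were not tested. These 14 passed the filter through their cerebral counts and so had to be lower. Hoxb5 was at −7.12 (SE 0.67, adjusted p 1.18e-06) and Hoxa5 at −6.96 (SE 0.47, adjusted p 5.59e-08). Without a filter on counts 22 members were called. Hindbrain markers differed less between the regions. In cerebellar Gad2 IPs their sum had a median of 104 CPM (78.9 to 148), carried by Slc6a5 at 75.6. There 5 of 12 were detected, Phox2a, Slc6a2, Dbh, Fev and Slc6a4 were among those not detected, and 2 of 6 tested rose and 2 fell against the cerebrum. In cerebellar vGluT2 IPs the sum was 34.9 CPM (25.7 to 57.2; Tlx3 22.2; 9 of 12 detected), with 2 of 9 up and 0 down. In cerebellar total RNA it was 50.2 CPM (36.5 to 63.5; Slc6a5 25.7; 8 of 12), with 2 of 11 up and 5 down. Telencephalon markers fell with the Hox genes, 7 of 7 in total RNA and in vGluT2 IPs and 6 of 7 in Gad2 IPs. These marker counts stand beside 58.2%, 63.2% and 51.1% of all tested genes called in either direction. The part of these markers in the Hox values was not tested.

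Some members were higher in control PV IPs than in cerebral total RNA. Hoxa5 ran from 5.80 through 7.91 to 9.81 CPM in 6 PV IPs and from 0.401 through 2.70 to 4.63 CPM in 13 total RNA libraries, with no overlap. Hoxa2 ran from 0.989 through 1.52 to 1.86 CPM in the IPs and from 0.251 through 0.679 to 1.11 CPM in total RNA, overlapping by the lowest IP only. With edgeR and Benjamini-Hochberg adjustment 8 of 16 members tested rose and 0 fell, where 69.2% of all tested genes were called, so that the members' share was below that of genes in general. The 8 were Hoxa2 (1.16, SE 0.27, adjusted p 0.000668), Hoxa3, Hoxa5 (1.41, SE 0.28, adjusted p 0.000173), Hoxb4, Hoxc4, Hoxc5, which shares the phrenic role of Hoxa5, Hoxc6 (1.42, SE 0.40, adjusted p 0.00349), a gene of brachial motor neurons, and Hoxd3. Hoxb7 (−0.55) and Hoxb8 (−0.85) were not called. The median of the tested members was 0.52 beside −0.01 for all tested genes. The 4 comparisons of cerebral IPs with total RNA share the same 13 total RNA libraries.

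In cerebral vGluT2 IPs some members were lower than in total RNA, by an extent that depended on the fit. Hoxb3 ran from 0.0485 through 1.43 to 2.21 CPM in 6 control IPs and from 2.39 through 3.59 to 5.02 CPM in the 13 total RNA libraries, and the groups did not overlap. Hoxd4, a gene of caudal hindbrain driven by retinoic acid, ran from 0 through 0.200 to 0.442 CPM and from 0.273 through 0.775 to 1.12 CPM, overlapping slightly. With edgeR 7 of 15 members tested fell and 0 rose, a share below the 64% of all tested genes that were called: Hoxa2 (−1.26), Hoxb2, Hoxb3 (−1.57, SE 0.43, adjusted p 0.0032), Hoxb4 (−1.35), Hoxb6 (−1.73), Hoxd3 and Hoxd4 (−1.99, SE 0.49, adjusted p 0.00141). The median over tested members was −1.18 beside 0.03 for all genes. The number called moved with the fit. Without control vGluT2 replicate 6, a library of few detected genes, 12 were called. Both genotypes gave 1, total RNA restricted to that line gave 1, and a mouse block gave 2 (Hoxb3 −0.90 and Hoxb8 −0.80), where Hoxd4 was at −1.44 (adjusted p 0.0581). With both genotypes Hoxb3 was at −0.67 (adjusted p 0.130) and Hoxd4 at −1.03 (adjusted p 0.0672), while over the fits without 1 IP the adjusted p was 0.00106 to 0.00802 for Hoxb3 and 0.000356 to 0.00402 for Hoxd4.

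Few members were called between cerebral Gad2 or SST IPs and total RNA. The typical SE of a member was 0.51 and 0.33, so few calls do not show equal levels. In same-mouse pairs the IP held the higher Hox sum in 4 of 6 for Gad2 and 6 of 6 for SST. Hoxd4 ran from 0.0246 through 0.451 to 0.786 CPM in 6 control Gad2 IPs, with its median below that of total RNA and with replicates 3 and 5 below the total RNA range. With edgeR 0 of 15 members tested were called, where 62.6% of all tested genes were; 1 had an unadjusted p under 0.05, Hoxd4 (−0.92, SE 0.42, adjusted p 0.0602), and DESeq2 called 1, Hoxd4 (−0.96, adjusted p 0.0254). It was called without control Gad2 replicate 6 (−1.23, adjusted p 0.0223) or replicate 2 (−1.12, adjusted p 0.0405), within a range of 0.0223 to 0.122 over those fits. A mouse block called Hoxa5 instead (1.06), and both genotypes gave 2 calls. In SST IPs Hoxa5 was at 9.96, 8.30, 6.09, 0.557 and 10.4 CPM in the 5 controls, so 4 of 5 lay above all 13 total RNA libraries and replicate 4 below all but 1. Hoxa5 was the 1 call of 15 members tested, where 61.9% of all genes were called (log2 fold change 1.18, SE 0.41, edgeR adjusted p 0.0192). It was lost without SST replicate 1 (1.02, adjusted p 0.0628) or 6 (1.03, adjusted p 0.0652) and with total RNA of the SST line alone (1.08, adjusted p 0.112). Without replicate 4, 7 members were called (Hoxa5 1.49, adjusted p 0.0011), and 2 were called with both genotypes, with scaling by library size, or with the mouse as a block (Hoxa5 and Hoxb6).

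In the cerebellum 0 members reached the mean count of 10 needed for a test of IP against total RNA, where 57.1% of all tested genes were called for Gad2 and 56.7% for vGluT2. Without that filter 0 and 6 members were called, and with the mouse as a block 1 was called for vGluT2. Hoxb5 had 79 of its 83 counts in control cerebellar vGluT2 IPs in replicate 2.

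Between cerebral cell types, compared in 1 fit of the 23 control IPs, members were called only between vGluT2 and PV IPs. Hoxa2 was at 0.989 to 1.86 CPM in 6 PV IPs and at 0, 0.0735, 0.0242, 0.704, 0.279 and 0.535 CPM in 6 vGluT2 IPs, with no overlap. Hoxb4, with its front border in the caudal hindbrain, ran from 2.28 through 3.29 to 3.91 CPM in PV IPs and from 0 through 0.717 to 1.35 CPM in vGluT2 IPs, again apart. With edgeR 8 of 16 members tested were lower in vGluT2 and 0 higher, a share below the 60.8% of all tested genes that were called: Hoxa2 (−2.32, SE 0.75, adjusted p 0.00955), Hoxa3, Hoxb2, Hoxb3, Hoxb4 (−2.11, SE 0.70, adjusted p 0.0113), Hoxc6, Hoxd3 and Hoxd4. Hoxb7 (0.61) and Hoxb8 (0.01) were not called. The count was 5 without PV replicate 5 or without vGluT2 replicate 2 or 3, and 13 without the libraries of few detected genes. Of 10 hindbrain markers tested, 6 were lower and 0 higher in vGluT2, near the 60.8% of all tested genes called. Their part in the Hox values was not tested.

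The 3 comparisons with cerebral Gad2 IPs gave 0 calls in edgeR among 16 members tested; SST was not compared with PV or vGluT2. Against Gad2 IPs, vGluT2 IPs had 2 members at an unadjusted p under 0.05 and DESeq2 called 1, where edgeR called 32.3% of all tested genes; the smallest p was that of Hoxd3, −1.55 (SE 0.62, adjusted p 0.0579). That count was 2 without Gad2 replicate 3 or vGluT2 replicate 4, 1 without Gad2 replicate 4 or 5 or vGluT2 replicate 5 or 6, and 4 without the libraries of few detected genes; DESeq2, library size or both genotypes each gave 1. PV against Gad2 had 1 member at an unadjusted p under 0.05, Hoxc6 (1.80, SE 0.84, adjusted p 0.0707), and DESeq2 called 0, beside 55.2% of all genes; 1 was called without Gad2 replicate 2 or without the filter, and 3 with both genotypes. SST against Gad2 had 0 at an unadjusted p under 0.05 and 0 by DESeq2, beside 55.4% of all genes, with the smallest p for Hoxd4 (0.89, SE 0.68, adjusted p 0.277); 2 were called without the filter. These comparisons share groups, and each holds its own values only.

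No Hox gene passed the test for HD in any of the 6 IP sets. In cerebral Gad2 IPs Hoxd4 had the smallest p, with 0.0246 through 0.451 to 0.786 CPM in 6 controls and 0 through 0.612 to 1.28 in 6 HD mice, ranges that overlap (log2 fold change 0.58, SE 0.74, adjusted p 0.726). In PV IPs it was Hoxa2, with 1.86, 0.989, 1.72, 1.49, 1.55 and 1.33 CPM in controls and 1.46, 0.363, 0.110, 1.02 and 1.04 in HD mice (−0.88, SE 0.44, adjusted p 1). Of the 5 HD values 3 lie within the control range and replicates 2 and 3 below it. In SST IPs it was Hoxd1, with 0.190, 0.299, 0.269, 0.0328 and 1.75 CPM in controls, of which replicate 6 stands far above the rest, and 0.229, 0.0972, 0.161 and 0.119 in HD mice (−1.67, SE 0.88, adjusted p 1). In cerebral vGluT2 IPs it was Hoxc6, with 0 through 0.112 to 0.334 CPM in controls and 0 through 0.251 to 1.32 in HD mice, the top value being that of replicate re1 (1.78, SE 1.20, adjusted p 0.706). In the SST comparison, control replicates 3, 4 and 6 came from mice named with Z and all HD mice were named with BR.

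Counted over members, edgeR called 0 of 15 in cerebral Gad2 IPs, where 0.0279% of all tested genes were called, 0 of 15 in PV IPs (0.034%), 0 of 16 in SST IPs (0%) and 0 of 16 in cerebral vGluT2 IPs (0.00697%). In each, 0 members had an unadjusted p under 0.05 in edgeR and DESeq2 called 0, with 1 at an unadjusted p under 0.05 in DESeq2 in PV IPs and 0 in the others. The fitted changes pointed up for 13 of 15 members in cerebral Gad2 IPs (median 0.34) and 14 of 16 in cerebral vGluT2 IPs (0.64). They pointed down for 15 of 15 in PV IPs (−0.73) and 15 of 16 in SST IPs (−0.50), beside medians of −0.01 to 0.01 over all genes (−0.02 in vGluT2). Members are measured in the same libraries, so these signs are not separate observations. The typical SE of a member was 0.83 in cerebral Gad2 IPs, 0.58 in PV, 0.64 in SST and 0.99 in vGluT2. The difference in the HD change between cerebral vGluT2 and Gad2 IPs was tested for 15 members, with 0 called by edgeR, 0 at an unadjusted p under 0.05 and 0 by DESeq2, where 0% of all tested genes were called. The smallest p was that of Hoxd3, 0.541 (adjusted p 1).

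In the cerebellar IPs few members could be tested. In Gad2 IPs it was 1, Hoxa3, with 0, 0.812, 0.0246, 0.0311, 0.863 and 0 CPM in controls and 0.841, 0.608, 0, 0, 0 and 0 in HD mice, so that 2 libraries of each genotype stood above the rest. The log2 fold change was −0.28 (SE 1.28, edgeR adjusted p 1), 0.58 without control replicate 5 and 0.33 without control replicate 2. With edgeR 0 members were called, 0 had an unadjusted p under 0.05 and DESeq2 called 0, where 0.0142% of all tested genes were called. In vGluT2 IPs 2 were tested, and Hoxb5 had the smaller p, with 0.101, 2.20, 0, 0 and 0 CPM in controls and 0.183, 0.0454, 0, 0, 1.13 and 0 in HD mice. Thus 1 library of each genotype (replicates 2 and 5) held most of it. The log2 fold change was −1.06 (SE 1.44, adjusted p 0.757), with 0 members called, 0 at an unadjusted p under 0.05 and 0 by DESeq2, where 2.11% of all tested genes were called.

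In cerebral total RNA, 13 control and 12 HD libraries of the 4 lines, no Hox gene was called either. Hoxb3 ran from 2.39 through 3.59 to 5.02 CPM in controls and from 0.153 through 1.54 to 4.44 in HD mice. The controls sit close together and the HD libraries spread from their range down to near 0. They held 3.90, 3.71 and 0.172 CPM in the Gad2 line, 3.70, 0.153 and 1.34 in the PV line, 1.33, 1.33 and 2.97 in the SST line and 0.735, 4.44 and 1.74 in the vGluT2 line. With the line as a covariate the log2 fold change was −0.84 (SE 0.38, unadjusted p 0.0375, edgeR adjusted p 0.631). Of 15 members tested 0 were called in edgeR and 1 had an unadjusted p under 0.05; DESeq2 called 0 and had 3 at an unadjusted p under 0.05, where edgeR called 0.645% of all tested genes. All 15 fitted changes were negative, from −1.02 to −0.33, with a median of −0.67 beside 0.02 for all genes. The Hox sum was 21.1 to 57.8 CPM in the controls, and 5 of the 12 HD libraries lay below 10 CPM. These were Gad2 line replicate 3 (2.07; hindbrain markers 20.4), PV line replicates 2 (1.25; 15.2) and 3 (8.12; 22.8), SST line replicate 2 (5.48; 49.2) and vGluT2 line replicate 1 (5.48; 17.2). Hindbrain markers were called in 0 of the cerebral HD comparisons, and how far they account for the spread was not tested.

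Cerebellar total RNA was the 1 comparison in which HD passed the test for a Hox gene. Hoxb3 (ENSMUSG00000048763.11, chromosome 11, 96323326 to 96347930, plus strand) was at 0, 0.0940 and 0.0624 CPM in controls of the Gad2 line and at 0.0216, 0.0453, 0 and 0 in controls of the vGluT2 line. In HD mice it was at 0, 0.0345 and 0.161 CPM in the Gad2 line and at 0.167, 0.457, 1.83 and 0.163 in the vGluT2 line, where the counts were 8, 18, 100 and 7. In the vGluT2 line the 4 HD libraries all exceed the 4 controls. In the Gad2 line 1 HD library (0.161 CPM) exceeds its controls and the others overlap with them. The difference between the lines was not tested. With edgeR it was the 1 member tested and it was called (log2 fold change 3.44, SE 1.01, adjusted p 0.034, n = 7 and 7), where 24.5% of all tested genes were called; DESeq2 called it too. The gene passed the filter through its HD counts, so a call here had to be a rise. The call depended on single libraries. Leaving out control Gad2 line replicate 2, control vGluT2 line replicate 1, 2, 3 or 4, HD Gad2 line replicate 2 or HD vGluT2 line replicate 4 lifted its adjusted p above the threshold. Without HD vGluT2 line replicate 2 or 3 the gene fell below the mean count of 10, so that 9 of 14 refits called 0 members. Where it could be fitted the change stayed between 3.07 and 4.18 (adjusted p 0.0170 to 0.0788). HD vGluT2 line replicate 3, which held 100 of the Hoxb3 counts, was high in its Hox sum as well. That sum was 6.91 CPM, against 1.44, 1.34 and 1.16 in HD replicates 1, 2 and 4 of that line. The cerebellar vGluT2 IP of the same mouse (HD replicate 5) had a Hox sum of 8.41 CPM.

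Hoxb6, a gene of trunk and spinal cord (ENSMUSG00000000690.5), was chosen after its values were seen. It was below the mean count of 10 in cerebellar total RNA and so was not tested with the others. Its counts were 0, 0 and 0 in controls of the Gad2 line and 0, 2, 0 and 0 in controls of the vGluT2 line. They were 11, 9 and 1 in HD mice of the Gad2 line, and 10, 5, 10 and 16 in HD mice of the vGluT2 line. It was thus above 0 in 7 of 7 HD libraries and in 1 of 7 controls, 62 counts against 2, a ratio of 29.6 (95% counting interval 7.86 to 249.9). Without the filter on counts, edgeR with Benjamini-Hochberg adjustment over 17980 genes called it (adjusted p 0.0109) among 3108 genes, together with Hoxb3 (3.30, SE 1.05, adjusted p 0.0443). In the cerebellar IPs Hoxb6 had 0 to 3 counts per HD Gad2 library against 0 in controls, and 0 to 4 in both genotypes for vGluT2, and in cerebral total RNA its HD change was −0.47 (SE 0.60). Other RNA of these samples moved as well, as 24.5% of all tested genes were called in this comparison, in either direction. Tlx3 was the 1 of 8 hindbrain markers to rise (0.81, SE 0.22, adjusted p 0.0308). Sums of the hindbrain list were 36.5 to 56.1 CPM in HD mice and 46.4 to 63.5 in controls. Over both genotypes Slc6a5 alone had a median of 25.7 CPM, so the sum shows little of the rarer members. Among these, Slc6a4 ran from 0 through 0.0248 to 4.29 CPM and Slc6a2 from 0 through 0.125 to 3.703. Dbh ran from 0 through 0.313 to 7.304 and Tph2 from 0.183 through 0.541 to 7.89. Fev and Phox2a reached only 0.446 and 0.127. Which libraries held these high values was not compared with Hoxb3 or Hoxb6. The part of the markers in the Hox values was not tested.

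**Figure D3:**
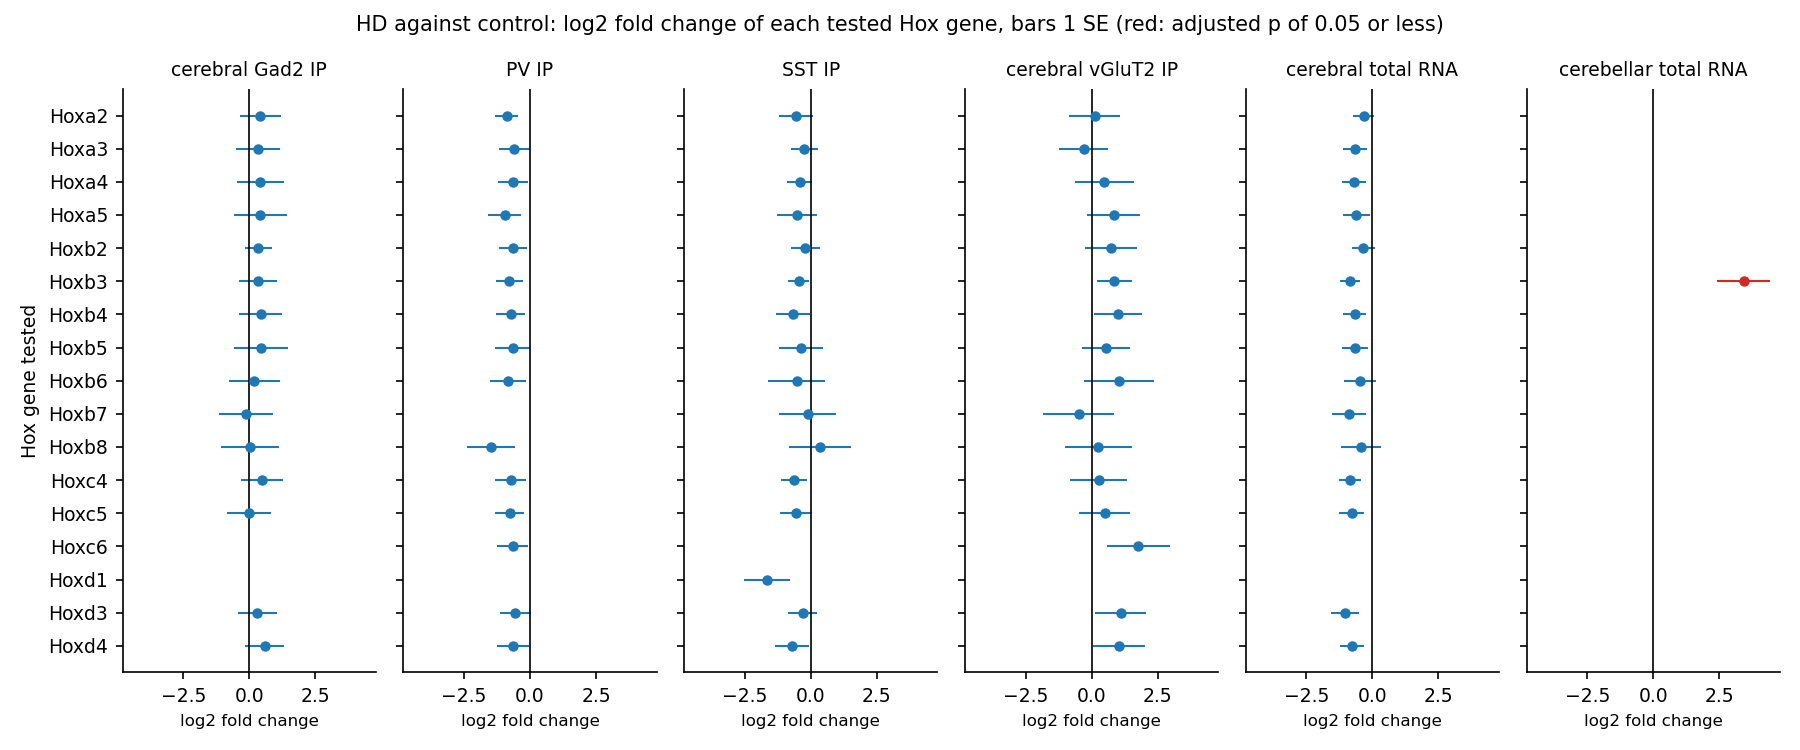
Log2 fold change of HD against control (horizontal axis) for each tested Hox gene (vertical axis) in the 4 cerebral IP sets, cerebral total RNA and cerebellar total RNA; points are edgeR estimates, bars are 1 SE, and red marks an adjusted p of 0.05 or less. Hoxb3 in cerebellar total RNA (3.44, SE 1.01) is the 1 red point, and the members of a set have medians of 0.34 and 0.64 in Gad2 and vGluT2 IPs and of −0.73 and −0.50 in PV and SST IPs.

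Polycomb mRNAs were abundant wherever Hox mRNA was or was not found. The 11 PRC2 genes were all detected in each set, with a summed median of 505 CPM in cerebral Gad2 IPs, 544 in PV, 620 in SST and 480 in cerebral vGluT2 IPs. It was 604 CPM in Gad2 and 772 in vGluT2 IPs of the cerebellum, led by the histone chaperones Rbbp7 and Rbbp4. Against total RNA 7 rose and 2 fell in cerebral Gad2 IPs, 8 and 2 in PV, 8 and 2 in SST and 6 and 3 in cerebral vGluT2 IPs, of 11 each, where 62.6%, 69.2%, 61.9% and 64% of all tested genes were called. In the cerebellum 2 rose and 3 fell in Gad2 and 5 and 2 in vGluT2 IPs, where 57.1% and 56.7% of all tested genes were called. Against the cerebrum, cerebellar samples had 4 of 10 PRC2 genes higher in Gad2 IPs (Suz12, Phf1, Jarid2 and Rbbp4), 8 of 11 in vGluT2 IPs and 7 of 11 in total RNA, with 0 lower in each, beside 51.1%, 63.2% and 58.2% of all tested genes called in either direction. The 12 PRC1 genes were all detected as well, with sums of 816 to 1332 CPM and Cbx6, a reader of the methyl mark, the most abundant. Against total RNA 3 rose and 3 fell in cerebral Gad2 IPs, 2 and 6 in PV, 1 and 5 in SST and 4 and 3 in cerebral vGluT2 IPs, close to or below the same shares. In HD, 0 of either list were called in the 4 cerebral IP sets and in cerebellar Gad2 IPs. Cbx2 and Cbx8, which read the methyl mark, rose in cerebellar vGluT2 IPs, where 2.11% of all tested genes were called, and in cerebellar total RNA. In the latter Pcgf2, Ring1 and Rbbp4 rose and Phc3 and Jarid2 fell, where 24.5% of all tested genes were called. Genes of this and the other lists named for a call were chosen after their values were seen. These are mRNA levels; histone marks on the clusters were not measured here.

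The partners of Hox proteins were common in all samples. The 9 TALE cofactors (Pbx, Meis and Pknox genes, whose homeodomain proteins bind DNA with Hox proteins) were detected in every set, with summed medians of 730 CPM in cerebral Gad2 IPs, 688 in PV, 738 in SST and 506 in cerebral vGluT2 IPs. It was 382 in both kinds of cerebellar IP. Against total RNA 5 rose and 0 fell in cerebral Gad2 IPs, 3 and 4 in PV, 3 and 3 in SST and 5 and 1 in cerebral vGluT2 IPs, near the shares of all tested genes called there (62.6%, 69.2%, 61.9% and 64%). Meis3, which helps to set hindbrain fate, was among the risers in each, at 3.06 (SE 0.12) in PV. In the cerebellum against the cerebrum 0 rose and 5 fell in Gad2 IPs, 2 and 4 in vGluT2 IPs and 3 and 6 in total RNA, where 51.1%, 63.2% and 58.2% of all tested genes were called. In HD the 1 call was Meis3 in cerebellar total RNA (0.59, SE 0.17, adjusted p 0.0325), where 24.5% of all tested genes were called. Of 13 genes that act upstream of the clusters, among them retinoic acid enzymes and receptors, Egr2 and the trithorax methyltransferases Kmt2a and Kmt2b, 10 were detected in each cerebral set and 9 in each cerebellar one. Cdx1, Cdx2 and Cdx4, which drive trunk Hox genes, were detected in none, and Egr2 not in the cerebellum. In HD, Cyp26b1, which breaks down retinoic acid, rose and Kmt2a and Gdf11 fell in cerebellar total RNA, 3 of 9 tested beside 24.5% of all tested genes.

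Around the clusters, 10 noncoding RNAs of the clusters were measured, and 3 were detected in cerebral Gad2 IPs, 5 in PV, 4 in SST, 3 in cerebral vGluT2 and 4 in cerebral total RNA, against 0, 0 and 1 in the cerebellar sets. Their sum had a median of 0.958 CPM in cerebral Gad2 IPs, 1.98 in PV and 0.648 in cerebral vGluT2 IPs, with Hoxb3os, Hoxaas2 and Hotairm1 the most abundant. None was tested, since the test was of protein-coding genes. Of the 10 protein-coding genes that flank the clusters, 9 or 10 were detected in each set, the cerebellar ones included, with sums of 318 to 547 CPM. Levels of single genes could still be far lower in the cerebellum, as for Skap1, at a median of 3.66 CPM in cerebral and 0.119 in cerebellar total RNA. Evx1, the homeobox gene at the end of HoxA, was the one missing from the Gad2 sets. Evx1 and Evx2, both of spinal interneurons, fell in cerebral Gad2 IPs against total RNA and rose in PV IPs.

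Genes whose level followed the Hox sum were sought over all libraries, by Pearson's correlation of log2(CPM + 0.5), which is a description over libraries that share tissue, line and in part mice. The 10 closest were Prrxl1 (0.853), a gene of dorsal horn neurons, Nkx6-1 (0.838), which patterns ventral hindbrain and cord, Hs3st3a1 (0.833), Lamp5 (0.831), Mafa (0.821), Bves (0.814), Cbln4 (0.814), Popdc3 (0.813), Slc18a3 (0.812), the vesicular acetylcholine transporter, and BC049352 (0.811). Within the 12 cerebral vGluT2 IPs, where the cerebellum plays no part, the closest were Sh3bgr (0.909), Meis1 (0.893), Slc18a3 (0.855), Rimkla (0.841), Drg1 (0.840), Adh5 (0.830), Spp1 (0.827), Ankrd55 (0.824), Kcng4 (0.820) and Vamp1 (0.818). Slc18a3 was in both sets of 10.

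Promoter sequences from RefSeq (build GRCm38.p6) were matched by symbol for 22 of the 39 members, with 24 entries, and 17 members had none, among them Hoxa4, Hoxb3, Hoxb5 and Hoxb6. In the 250 bases upstream of the start the median ratio of observed to expected CpG was 0.72 (0.16 to 1.11) against 0.37 for 32851 promoters, 13 of 24 entries were above 0.6 against 34.0%, and the median GC content was 58.6% against 52.4%. CpG-rich promoters without activating factors are the usual sites of PRC2 in embryonic cells. On either strand TGATNNAT, the joint site of PBX and HOX proteins, was in 4 of 24 entries against 7.68% of all promoters, and TGACAG of MEIS in 2 against 15.9%. AGGTCA, part of the site of retinoic acid receptors, was in 6 against 14%, and TAATTA, a general homeodomain site, in 2 against 4.84%. Of the 8 members highest per kb, the promoters of Hoxa5, Hoxb8 and Hoxb4 are shown, as cases with and without a match, 5′ to 3′ on the strand of the gene. In Hoxb8 (chr11:96281655-96281904, plus strand) the capitals mark a match of TGATNNAT on the other strand, in Hoxb4 (chr11:96318017-96318266, plus strand) they mark a match of AGGTCA on the other strand, and Hoxa5 (chr6:52204588-52204837, minus strand) had no match of the 4 motifs; the entry of Hoxc4 overlaps annotated exons and is not printed. A match says only that the letters are there.
Hoxa5: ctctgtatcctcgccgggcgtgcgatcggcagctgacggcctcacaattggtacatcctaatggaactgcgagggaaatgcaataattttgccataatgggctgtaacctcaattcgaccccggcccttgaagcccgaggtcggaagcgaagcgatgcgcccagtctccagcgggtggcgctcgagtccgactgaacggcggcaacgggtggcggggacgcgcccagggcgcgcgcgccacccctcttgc
Hoxb8: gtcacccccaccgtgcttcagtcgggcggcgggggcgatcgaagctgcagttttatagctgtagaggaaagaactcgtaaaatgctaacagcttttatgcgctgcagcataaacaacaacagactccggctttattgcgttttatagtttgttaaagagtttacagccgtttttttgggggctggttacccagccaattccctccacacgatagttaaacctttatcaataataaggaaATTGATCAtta
Hoxb4: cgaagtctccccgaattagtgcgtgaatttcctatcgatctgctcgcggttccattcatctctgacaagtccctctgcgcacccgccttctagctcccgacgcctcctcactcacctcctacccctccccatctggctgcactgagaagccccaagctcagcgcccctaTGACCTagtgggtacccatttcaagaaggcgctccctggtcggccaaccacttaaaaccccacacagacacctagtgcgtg

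The other cell-type lists show what the sets held beside the tagged neurons. Oligodendrocyte genes had a median sum of 720 CPM in cerebral Gad2 IPs, 1806 in PV, 3563 in SST and 406 in cerebral vGluT2 IPs against 5204 in cerebral total RNA (6 of 6 detected in each). Of the 6, 6, 4, 4 and 6 fell against total RNA. Of all tested genes 62.6%, 69.2%, 61.9% and 64% were called in these comparisons, in either direction, and the counts below are to be read against that. Astrocyte genes were at 97.1, 241, 406 and 57 CPM against 818, with 5, 4, 3 and 5 of 5 lower, and microglia at 104, 56.3, 80.6 and 9.49 CPM against 255, with 5 of 5 lower in each. Endothelium was at 7.40, 22.3, 33.3 and 3.94 CPM against 55.7, with 3, 3, 2 and 3 of 3 lower, and meningeal and mural genes were at 4.97, 12.5, 19.5 and 20 CPM against 49.7, with 4, 4, 3 and 2 of 4 lower. Telencephalon markers were at 182, 125, 172 and 537 CPM against 263, so vGluT2 IPs, lowest for Hox mRNA, were highest here. There 5 of 7 rose and 2 fell, where Gad2 IPs had 2 up and 5 down and PV and SST IPs 1 up and 5 down. Midbrain and diencephalon markers were at 27.3, 32.4, 76.3 and 79.2 CPM against 63.7, with 1 up and 3 down of 5 in Gad2, 0 and 5 in PV, 1 and 4 in SST and 2 and 2 in vGluT2 IPs. Purkinje markers, 4 genes led by calcium-handling proteins that other neurons share, were at 609, 785, 1031 and 718 CPM against 269 and rose in 2, 4, 2 and 2 cases. Hindbrain markers were called lower than total RNA more often than higher, 7 of 11 against 1 in Gad2, 5 against 4 in PV, 4 against 0 in SST and 7 against 0 in vGluT2 IPs. Slc6a5 rose in Gad2 (1.02, SE 0.28) and PV IPs (1.85, SE 0.20) and fell in vGluT2 IPs (−4.94, SE 0.45). The part of these lists in the Hox values was not tested.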

How the data were processed

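Values were the expected counts that the authors deposited, estimated after alignment with STAR and Salmon (versions not given) to GRCm38.p6 and rounded here; spike-ins were left out. Protein-coding genes with a mean count above 10 were tested with edgeR 4.0.16 (R 4.3.3, TMM, quasi-likelihood F test). Adjustment was by Benjamini-Hochberg over all tested genes, and genes were called at an adjusted p of 0.05 or less. DESeq2 1.42.0 was the alternative. The pairing check was a correlation for each pair of control and HD libraries with the same replicate number. SE is the absolute log2 fold change divided by the root of F. The code was tested on simulated data. CPM used the library total, and exon lengths came from GENCODE M21. Figures used matplotlib 3.10.9 and tables pandas 2.3.3 and numpy 2.4.6 under Python 3.11.15. Genes given library by library were the 8 highest per kb, members called for HD and, in each other HD comparison, the member of smallest p; other genes named were chosen after their values were seen. Summed levels, detection, correlations and promoter motifs were computed. The lists were TALE cofactors, upstream regulators, PRC2, PRC1, noncoding RNAs, neighbors, hindbrain, midbrain and diencephalon, telencephalon, granule, Purkinje, oligodendrocyte, astrocyte, microglia, endothelial, meningeal and targeted neurons. Members and lists were chosen with earlier results of these data known. Results on some genes are not reported here.

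Limits: the data are bulk mRNA at 1 age, with 3 to 6 libraries per group, and the amount of brainstem in each sample was not recorded. Hox counts are low, so that most members could not be tested in the cerebellum. IP enrichment includes RNA that binds without the tag, and mRNA levels do not give protein or chromatin state. Members of 1 cluster are not separate observations. Libraries of 1 mouse were not independent where IP, total RNA or regions were compared. Leaving out single total RNA libraries, and leaving out libraries of few detected genes, were chosen after seeing the data.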

Additional observations from a re-analysis of the deposited data

Results flagged for a closer look

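A library was marked when its value stood far from the others of its group. For independent, normally distributed values this would happen by chance in about 1 in 20 groups. Values near the floor are not so distributed, and the group-values share libraries. The rate of marking, 17 of 68 group-values, is therefore not to be read against that share. For the summed Hox level the marked libraries were control cerebellar Gad2 replicate 2 (2.32 CPM), control cerebellar vGluT2 replicate 2 (13.9), HD cerebellar vGluT2 replicate 5 (8.41) and HD cerebellar vGluT2 total RNA replicate 3 (6.91). The HD libraries among these came from the same mouse. Hoxb3 was marked at 0.280 CPM in control cerebellar Gad2 replicate 2, 1.98 in control cerebellar vGluT2 replicate 2 and 1.76 in HD cerebellar vGluT2 replicate 5. Hoxb5 was marked at 2.20 CPM in control cerebellar vGluT2 replicate 2, 1.13 in HD cerebellar vGluT2 replicate 5 and 1.04 in HD cerebellar vGluT2 total RNA replicate 3. Hoxd1 was marked at 1.75 CPM in control SST replicate 6. For the number of genes detected at 20000000 counts the libraries were control cerebellar Gad2 replicate 5 (13368), control cerebral Gad2 replicate 5 (14232), control PV replicate 1 (15711), control SST replicate 6 (15034), control cerebral vGluT2 replicate 6 (14829) and HD cerebral vGluT2 replicate re1 (12564).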

How the results depend on the processing

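Detected members in the cerebellum with a floor of 1 count were 1 in Gad2 IPs, 8 in vGluT2 IPs and 12 in total RNA; with a floor of 10 or thinned libraries total RNA had 0. For HD in cerebellar total RNA the count was 2 without the filter and 0 with the replicate number as a block, where Hoxb3 was at 3.08 (adjusted p 0.121). Control and HD replicates of 1 number share only the number; of 48 such pairs in 12 sets 25 correlated above 0.1 (−0.78 to 0.94), and 1 set, cerebral Gad2 total RNA, had all 3 above it. Signs turned for Hoxa3 in HD cerebellar Gad2 IPs (0.58 without libraries of few genes, 0.58 without control replicate 5, 0.33 without control replicate 2) and for Hoxb5 in HD cerebellar vGluT2 IPs (0.14 with that block).

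For IP against total RNA, cerebral Gad2 gave 1 by DESeq2, 1 with DESeq2 size factors (Hoxd4 −0.95, adjusted p 0.0498; DESeq2 −0.96, 0.0254), 1 without the filter, 2 with both genotypes and 1 with the mouse as a block. SST gave 2 by library size, 2 with both genotypes, 0 with the same line (Hoxa5 1.08, adjusted p 0.112), 2 with the mouse block and 0 without few-gene libraries (Hoxa5 1.03, 0.0652). Cerebral vGluT2 gave 1 with both genotypes (Hoxd4 −1.03, adjusted p 0.0672; Hoxb3 −0.67, 0.130), 1 with the same line (Hoxb3 −1.75, 0.0565), 2 with the mouse block (Hoxd4 −1.44, 0.0581) and 12 without few-gene libraries. Cerebellar vGluT2 gave 6 without the filter and 1 with the mouse block.

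Cerebral vGluT2 against Gad2 gave 1 by DESeq2, 1 by library size, 1 with both genotypes and 4 without few-gene libraries; PV against Gad2 gave 1 without the filter and 3 with both genotypes; SST against Gad2 gave 2 without the filter; vGluT2 against PV gave 13 without few-gene libraries. For cerebellum against cerebrum, vGluT2 gave 1 by DESeq2 (Hoxb5 −3.36, adjusted p 0.0890), 1 by library size (−3.25, 0.0509), 4 without the filter, 0 with the mouse block (Hoxb8 −3.65, 0.120; Hoxb5 −3.74, 0.111), 12 with both genotypes and 1 without few-gene libraries (Hoxb5 −2.78, 0.0995). In Gad2 Hoxa3 was called with both genotypes (−2.11, adjusted p 0.0220) and without few-gene libraries (−2.88, 0.0333), and total RNA gave 22 without the filter. The mouse block changed no other call. 

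Without 1 library at a time the counts ranged from 0 to 1 for HD in cerebellar total RNA (Hoxb3 3.07 to 4.18), 0 to 1 for IP against total RNA in cerebral Gad2 (Hoxd4 −1.23 to −0.67), 0 to 7 in SST (Hoxa5 1.02 to 1.49) and 5 to 12 in cerebral vGluT2. They ranged from 0 to 2 for vGluT2 against Gad2, 0 to 1 for PV against Gad2, 5 to 11 for vGluT2 against PV and 1 to 11 for the regions in vGluT2 (Hoxb5 −7.23 to −2.78). Hoxa3 in HD cerebellar Gad2 IPs ranged from −1.05 to 0.58. The cause was not tested.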
